A study of Mus musculus with 12 samples.

Results

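The endothelial genes described here are 10 genes that mark or specify the cells lining blood vessels: Kdr, Flt1, Pecam1, Cdh5, Tek, Tie1, Etv2, Sox17, Tal1 and Esam. They were taken by name, through every probe set that the array annotation gives to 1 of these genes alone, which found 15 probe sets for all 10 genes, out of 34945 such probe sets and 18193 genes on the array. A probe set is a group of short array probes that together read 1 transcript. Messenger RNA was measured on Affymetrix whole-genome mouse expression arrays in neural tubes that had been micro-dissected from untreated embryos of ICR (CD-1) mice, an outbred stock, at 3 stages (GD8.5, GD9.0 and GD9.5, in gestation days from the morning of the vaginal plug, taken as 0). The labels name 4 biological replicates per stage and do not say how many embryos or litters each holds, so the p-values measure the spread between these samples. Of the 12 arrays, 10 were deposited as log2 values and were compared, of which 2 belong to GD8.5 (replicates 3 and 4) and 4 to each later stage. GD8.5 replicates 1 and 2 were deposited as linear intensities and enter only where this is said.

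The first blood vessels of the mouse embryo form from mesodermal precursors, and the neural tube starts without vessels of its own and is wrapped by a plexus that later grows into it. Etv2, an ETS-family transcription factor, acts early and for a short time in the choice of the blood and endothelial fate, together with Tal1, a basic helix-loop-helix factor that is also needed for blood. Endothelial cells then sense vascular endothelial growth factor (VEGF) through the receptor kinases encoded by Kdr and Flt1, and angiopoietins through the receptor kinase Tek, whose relative Tie1 has no well-established ligand of its own. Cdh5 (VE-cadherin), Pecam1 and Esam are adhesion proteins of endothelial junctions, and Sox17 is a transcription factor of arterial endothelium and also of definitive and visceral endoderm. A neural tube dissection may therefore carry endothelial RNA from the surrounding plexus, from attached heart or from yolk sac.

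The promoter sequences of the 4 receptor genes and of Etv2 are shown because ETS factors bind a GGAA core, found at many endothelial genes. Whether these sequences bear on the changes between stages was not tested. The RefSeq table of build GRCm38.p6 held 7 windows for 6 of the 10 genes, Tal1 with 2. Each line gives the 250 bases before an annotated start, 5′ to 3′ on the gene's strand, with GGAAGT or its reverse complement ACTTCC in capitals. The windows lie at chr5:75978456-75978705 (Kdr, minus strand), chr5:147726012-147726261 (Flt1, minus strand), chr4:94739039-94739288 (Tek, plus strand), chr4:118489850-118490099 (Tie1, minus strand) and chr7:30635853-30636102 (Etv2, minus strand).
Kdr: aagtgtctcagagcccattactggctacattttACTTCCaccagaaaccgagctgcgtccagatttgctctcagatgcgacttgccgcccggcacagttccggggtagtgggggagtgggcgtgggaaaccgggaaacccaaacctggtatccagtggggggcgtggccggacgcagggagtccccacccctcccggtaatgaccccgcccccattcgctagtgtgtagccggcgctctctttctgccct
Flt1: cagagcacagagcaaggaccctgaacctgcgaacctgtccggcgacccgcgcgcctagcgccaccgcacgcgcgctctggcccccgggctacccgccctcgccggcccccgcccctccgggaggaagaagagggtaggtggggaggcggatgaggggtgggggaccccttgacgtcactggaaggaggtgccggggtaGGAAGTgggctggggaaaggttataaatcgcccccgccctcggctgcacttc
Tek: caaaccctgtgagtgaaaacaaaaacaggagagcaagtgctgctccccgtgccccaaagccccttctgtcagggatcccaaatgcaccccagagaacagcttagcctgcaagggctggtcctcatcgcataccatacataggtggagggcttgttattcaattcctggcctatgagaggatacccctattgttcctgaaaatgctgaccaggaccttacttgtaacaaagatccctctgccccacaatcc
Tie1: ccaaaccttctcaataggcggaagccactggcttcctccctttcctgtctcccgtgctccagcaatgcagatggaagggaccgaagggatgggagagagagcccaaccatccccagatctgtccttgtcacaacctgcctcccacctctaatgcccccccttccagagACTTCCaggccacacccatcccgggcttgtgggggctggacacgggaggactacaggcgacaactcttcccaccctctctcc
Etv2: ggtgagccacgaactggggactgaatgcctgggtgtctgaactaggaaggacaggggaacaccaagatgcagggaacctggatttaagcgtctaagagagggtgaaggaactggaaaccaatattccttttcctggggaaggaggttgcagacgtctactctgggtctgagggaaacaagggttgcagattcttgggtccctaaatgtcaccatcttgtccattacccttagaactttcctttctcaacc
GGAAGT, searched on both strands, was found in the windows of Kdr, Flt1 and Tie1, once in each, beginning 217, 52 and 82 bases before the start, and its letters were not in the windows of Tek, Etv2 or Tal1. Over all 32851 promoter windows of the same length, 19.7% held GGAAGT. The shorter core GGAA was not counted, and it or its complement TTCC also stands in the printed windows of Tek and Etv2. The motif AGATAA, which GATA factors bind, was also searched on both strands and was found in 1 of the 7 windows, the first of Tal1, against 9.99% of all windows. TATAAA, searched on the gene's strand, was found in that of Flt1, 31 bases before the start, against 7.59% of all windows. None of these motifs overlapped another here, and a match is a description of the letters, not a binding site.

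From GD8.5 to GD9.5, 6 of the 10 endothelial genes fell, and 0 rose. Of the transcription factors, Etv2 was 4.86-fold lower and Sox17 2.91-fold lower at GD9.5. On its second probe set Sox17 was 1.48-fold lower. Tek was 1.95-fold lower, Flt1 1.53-fold, Kdr 1.44-fold and Esam 1.38-fold. Pecam1, Cdh5, Tal1 and Tie1 did not pass the test. Calls were made where limma gave an adjusted p under 0.05 with Benjamini-Hochberg adjustment over all 18193 genes, of which 13.1% were called lower and 15.5% higher at GD9.5 than at GD8.5. Each gene is represented by its brightest probe set. The median log2 change was -0.49 over the 10 genes, against -0.016 over all genes. In whole tissue, fewer endothelial cells and less RNA per cell cannot be told apart.

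**Figure D1:**
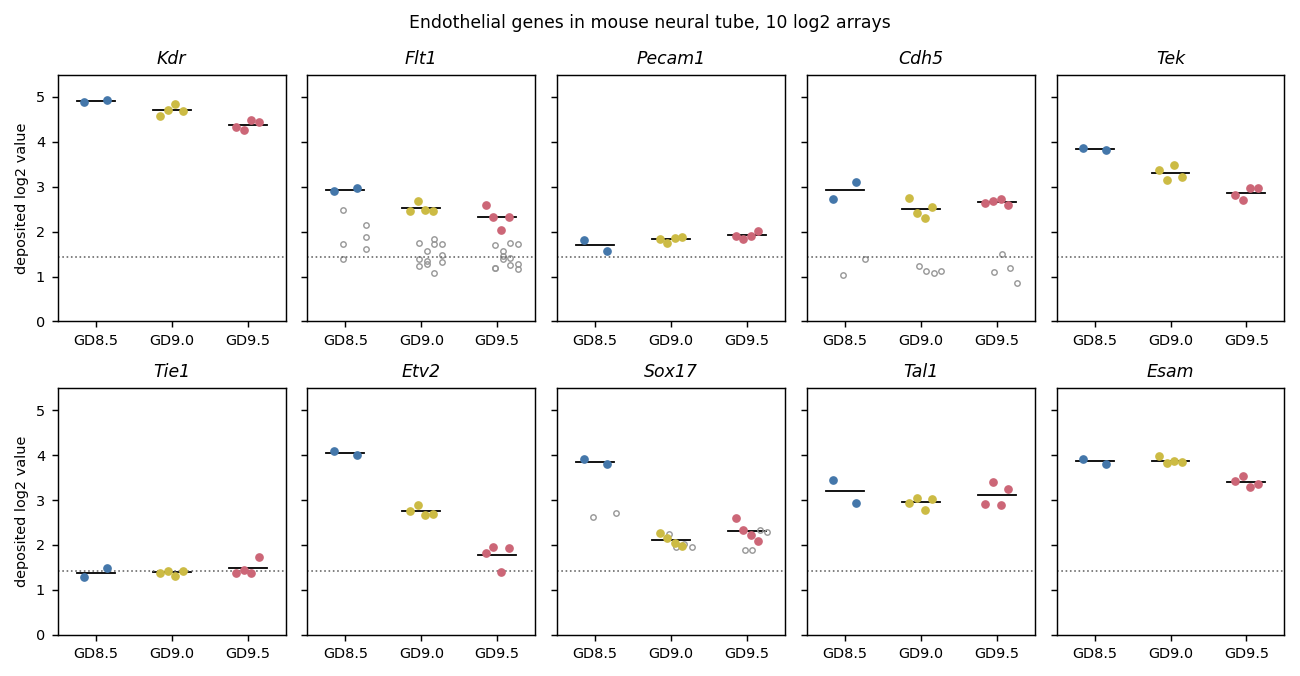
Deposited log2 value of each endothelial gene (y axis) on the 10 log2 arrays by stage (x axis), filled circles for the brightest probe set, open grey circles for other probe sets, a bar for the mean and a dotted line at the background level of 1.42. Etv2 steps down at each stage to a mean of 1.77 at GD9.5, Sox17 drops once, and Tie1 stays near the dotted line, with a highest array of 1.73.

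The level that 95% of 39 olfactory receptor genes stayed under, 1.42, served as the background. By their mean over the 10 arrays 12 of the 15 probe sets and 9 of the 10 genes lay above it, and these 9 were also above it in the mean of every stage. Tie1 was at it. Log2 values near the background understate changes.

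Etv2 was measured by 1 probe set, 1421773_at. Its log2 value was 4.09 and 4.01 at GD8.5, 2.76, 2.89, 2.66 and 2.69 at GD9.0, and 1.83, 1.94, 1.39 and 1.93 at GD9.5. The stages did not overlap, and GD9.5 replicate 3 was the lowest array, at the background. The log2 change was -1.30 ± 0.14 (SE) at GD9.0 against GD8.5 (limma adjusted p = 7.98e-05, n = 4 against 2) and -0.98 ± 0.11 at GD9.5 against GD9.0 (limma adjusted p = 9.03e-05, n = 4 against 4). Over the full day it was -2.28 ± 0.14 (limma adjusted p = 2.93e-07), and the second interval differed from the first by 0.33 ± 0.21, which did not pass (limma adjusted p = 0.392).

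Sox17 fell in the first interval, and its second change differed from the first. Its brightest probe set, 1429177_x_at, read 3.91 and 3.80 at GD8.5, 2.27, 2.17, 2.05 and 1.99 at GD9.0, and 2.59, 2.33, 2.23 and 2.10 at GD9.5. The GD8.5 arrays stood above all later ones, while GD9.0 and GD9.5 overlapped. The change was -1.73 ± 0.12 (SE) in the first interval (limma adjusted p = 3.09e-06) and 0.19 ± 0.10 in the second (limma adjusted p = 0.207), and the difference between the intervals was 1.93 ± 0.19 (limma adjusted p = 8.9e-05). The suffix _x_at marks probes that may also pair with other transcripts. The second probe set, 1421657_a_at, read 2.62 and 2.70, then 1.94 to 2.24, then 1.88 to 2.33, and changed less in the first interval, by -0.62 ± 0.14 (limma adjusted p = 0.0158 over all 45037 probe sets that are not controls). With the mean of both probe sets as the gene's value, the first-interval change was -1.18.

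Tal1 gave 3.44 and 2.94 at GD8.5, 2.94, 3.05, 2.78 and 3.03 at GD9.0, and 2.92, 3.40, 2.89 and 3.24 at GD9.5 on its 1 probe set. The stages overlapped. The full-day change of -0.080 ± 0.16 (SE) had a 95% interval from -0.44 to 0.28 (limma adjusted p = 0.782). Tal1 is also a gene of blood precursors, and the mean log2 level of 11 measured blood progenitor and primitive red cell genes was higher at the later stages, at 4.50 to 4.52 at GD8.5, 4.99 to 5.06 at GD9.0 and 5.19 to 5.31 at GD9.5. Over the full day 4 of them rose and 1 fell, with a median log2 change of 0.13, where 15.5% of all genes rose and 13.1% fell. The changes were led by the embryonic alpha-globin gene Hba-x (2.504 ± 0.062 SE) and the stem cell factor receptor gene Kit (-0.70 ± 0.12, 1 of 2 probe sets) on the log2 scale. The part of these genes in the level of Tal1 was not tested.

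Kdr, the main signalling receptor for VEGF, read 4.88 and 4.93 at GD8.5, 4.57, 4.72, 4.85 and 4.68 at GD9.0, and 4.32, 4.27, 4.48 and 4.45 at GD9.5. The ranges of the 3 stages did not overlap, though the gap between GD8.5 and GD9.0 was small. The first-interval change of -0.20 ± 0.09 (SE) did not pass (limma adjusted p = 0.180), and the second, -0.32 ± 0.07, did (limma adjusted p = 0.00672). Over the full day Kdr fell by 0.52 on the log2 scale (limma adjusted p = 0.000896), and the intervals did not differ by the test (-0.12 ± 0.13, limma adjusted p = 0.648).

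Flt1, a VEGF receptor that also has a soluble form and can act as a decoy, had 4 probe sets. The brightest, 1451756_at, gave 2.90 and 2.97 at GD8.5, 2.46, 2.68, 2.48 and 2.46 at GD9.0, and 2.59, 2.33, 2.03 and 2.32 at GD9.5. The GD8.5 arrays were above all others, and the later stages overlapped. It fell over the full day (-0.62 ± 0.13 SE, limma adjusted p = 0.00321), and the first-interval change of -0.42 ± 0.13 just missed the threshold (limma adjusted p = 0.0507). The probe set 1419300_at read 2.48 and 2.14, then 1.57 to 1.83, then 1.57 to 1.75, and was called lower at GD9.0 (-0.60 ± 0.10, limma adjusted p = 0.0034 over probe sets). The other 2 probe sets lay near the background, with stage means from 1.27 to 1.66. With the mean of the 4 probe sets as the gene's value, the first-interval change was -0.40 and passed (limma adjusted p = 0.0003). The difference between the intervals then passed too (0.31, limma adjusted p = 0.0267). With all 12 arrays after log2 and quantile normalization, the full-day change of Flt1 was -0.33 and no longer passed (limma adjusted p = 0.245). The first-interval change with 12 arrays was -0.13 and did not pass (limma adjusted p = 0.689). With 1 GD8.5 array left it was -0.45 without replicate 3 and -0.38 without replicate 4. In 9 of the 19 alternatives listed below, the first-interval change passed.

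Tek, the angiopoietin receptor also called Tie2, fell in both intervals. Its values were 3.85 and 3.81 at GD8.5, 3.38, 3.15, 3.48 and 3.22 at GD9.0, and 2.83, 2.70, 2.97 and 2.98 at GD9.5, with no overlap between stages. The changes were -0.53 ± 0.11 (SE, limma adjusted p = 0.00623) and -0.44 ± 0.09 (limma adjusted p = 0.00326). With 1 GD8.5 array left, whose spread is then taken from the later stages, the first change was -0.51 without replicate 3 (limma adjusted p = 0.0584) and -0.55 without replicate 4 (limma adjusted p = 0.0454). The second call was lost with 12 arrays (-0.44, limma adjusted p = 0.0551). Tie1 read 1.28 and 1.49, then 1.32 to 1.43, then 1.37 to 1.73. Its means at GD8.5 and GD9.0 lay under the background and that at GD9.5, 1.48, just above it, and its full-day change was 0.094 ± 0.10 (limma adjusted p = 0.569).

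Of the 3 junction genes Esam alone was called in a stage comparison. It fell in the second interval, with 3.92 and 3.81 at GD8.5, 3.97, 3.82, 3.86 and 3.84 at GD9.0, and 3.42, 3.54, 3.29 and 3.35 at GD9.5. The GD9.5 arrays lay under all others. Its changes were 0.0079 ± 0.080 (SE, limma adjusted p = 0.971) and -0.47 ± 0.07 (limma adjusted p = 0.000312). The difference between the intervals was -0.48 ± 0.12 (limma adjusted p = 0.0268), a call that was lost at differences of a like size without GD9.0 replicate 1, 3 or 4 (-0.42, -0.49 and -0.51, limma adjusted p from 0.0508 to 0.0787). It was also lost without GD8.5 replicate 4, which leaves 1 GD8.5 array (-0.43, limma adjusted p = 0.103), with the replicate block (-0.43, limma adjusted p = 0.0816) and with 12 arrays (-0.40, limma adjusted p = 0.299).

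Cdh5 read 2.73 and 3.11 at GD8.5, 2.74, 2.42, 2.32 and 2.55 at GD9.0, and 2.63, 2.69, 2.74 and 2.59 at GD9.5 on probe set 1433956_at. The stages overlapped, with GD8.5 replicate 4 the highest array. Its first-interval change of -0.41 ± 0.12 (SE) just missed the threshold (limma adjusted p = 0.0505) and moved with single arrays. It was -0.60 without GD8.5 replicate 3 (limma adjusted p = 0.0255) and -0.23 without GD8.5 replicate 4 (limma adjusted p = 0.441), where the lone GD8.5 array is assumed to vary like the later stages. It was -0.49 without GD9.0 replicate 1 (limma adjusted p = 0.0171) and -0.24 with the mean of both probe sets (limma adjusted p = 0.255). The second-interval change was 0.16 ± 0.10 (limma adjusted p = 0.318). Its second probe set, 1422047_at, lay under the background, with stage means from 1.14 to 1.21. Pecam1 read 1.82 and 1.58, then 1.84, 1.74, 1.85 and 1.88, then 1.91, 1.84, 1.91 and 2.01. It was the 1 gene of the 10 above the background whose mean was higher at each later stage, by 0.22 ± 0.08 over the full day, which did not pass (limma adjusted p = 0.0657). With 1 GD8.5 array left, that change was 0.34 without replicate 3 (limma adjusted p = 0.0225) and 0.095 without replicate 4 (limma adjusted p = 0.567).

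**Figure D2:**
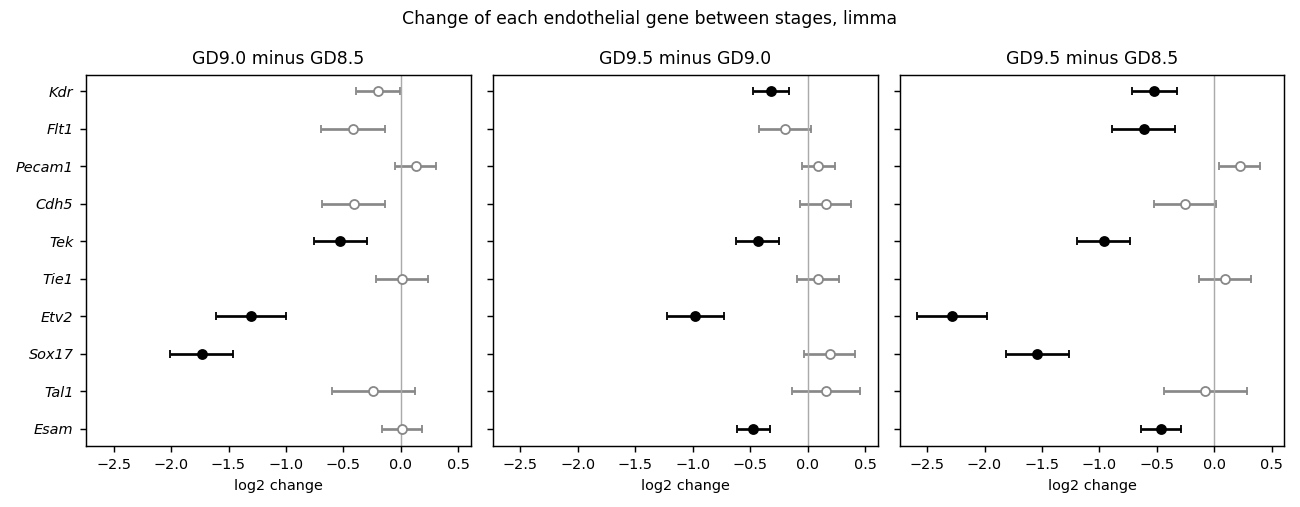
Log2 change of each endothelial gene (x axis) in 3 stage comparisons from limma, with 95% intervals, filled black where the adjusted p over all genes was under 0.05 and open grey elsewhere. Etv2 and Tek are filled in all 3 panels, Sox17 in the first and the third, Kdr and Esam in the second and the third, and Flt1 in the third.

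Between GD8.5 and GD9.0, 3 of the 10 genes were called lower (Etv2, Sox17 and Tek) and 0 higher, where 6.74% of all genes were called lower and 6.78% higher. Between GD9.0 and GD9.5, 4 were called lower (Etv2, Tek, Esam and Kdr) and 0 higher, where 10.3% of all genes were called lower and 14.1% higher. The 2 comparisons share the GD9.0 arrays. The difference between the intervals was called for Sox17 and Esam, in opposite directions, where 11.6% of all genes were called either way. By probe set, 5 of 15 were called lower at GD9.0 against GD8.5, 4 at GD9.5 against GD9.0 and 8 at GD9.5 against GD8.5, where 3.68%, 8.1% and 8.96% of all probe sets were called lower. No probe set of the 15 was called higher in the 3 comparisons by limma, where 4.28%, 8.93% and 10.4% of all probe sets were.

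Whether genes moved unequally within the same arrays was asked by taking the log2 value of a gene minus that of Cdh5 on each array, for 6 genes. From GD9.0 to GD9.5 the Etv2 difference changed by -1.13 (-1.35 to -0.66 at GD9.5, against 0.014 to 0.47 at GD9.0) and the Tek difference by -0.59 (0.0037 to 0.39 at GD9.5, against 0.63 to 1.16 at GD9.0). Neither range overlapped, with p = 0.0286 each by a two-sided exact permutation test, the smallest that 4 against 4 arrays can give, and 0.0857 after Benjamini-Hochberg adjustment over the 6 genes. The Kdr difference changed by -0.48 (exact permutation p = 0.0571, adjusted 0.114) and the Flt1 difference by -0.36 (exact permutation p = 0.143, adjusted 0.214). Those of Sox17 (0.037) and Tal1 (0.0047) had exact permutation p = 0.886 and p = 1. None passed after adjustment. Etv2 and Tek had the smallest possible p and still could not pass over the 6 genes, so this does not show equal movement. From GD8.5 to GD9.0, where 4 against 2 arrays cannot give an exact p under 0.0667, the changes were -1.32 for Sox17, -0.89 for Etv2, -0.11 for Tek, -0.0033 for Flt1, 0.17 for Tal1 and 0.21 for Kdr.

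The VEGF ligands and co-receptors fell over the full day in 6 of 8 cases and rose in 0, with a median log2 change of -0.45. The list counts here and below stand beside the shares of all genes called. Over the full day 13.1% of all genes were called lower and 15.5% higher. These shares were 6.74% and 6.78% in the first interval, and 10.3% and 14.1% in the second. Nrp1 and Nrp2, neuropilins that bind VEGF together with its receptors and also semaphorins on neural crest and axons, were at stage means of 7.03, 5.84 and 5.42 and of 5.59, 4.97 and 4.00. They changed by -1.60 ± 0.12 and -1.59 ± 0.08 (SE), and all 4 probe sets of each were called lower. Flt4, the receptor of lymphatic and early venous endothelium, changed by -0.59 ± 0.16 with 1 of 2 probe sets called. The ligands Vegfb (-0.58 ± 0.10), Vegfa (-0.32 ± 0.10) and Vegfc (-0.30 ± 0.08) also fell. Pgf, placental growth factor, was at -0.16 ± 0.19 and Vegfd, at the background, at -0.039 ± 0.073, and neither passed, though 1 of 3 Vegfd probe sets was called lower. In the first interval 2 of the 8 fell, Nrp1 (-1.18 ± 0.12) and Nrp2 (-0.62 ± 0.08), and in the second all but Pgf and Vegfd did. The drop of Vegfc belonged to the second interval, where it changed by -0.43 ± 0.07, against 0.13 ± 0.08 in the first, and the difference passed (limma adjusted p = 0.0178).

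Among the 4 measured genes of the angiopoietin system, the agonist ligand Angpt1 rose while its receptor Tek fell. At GD8.5 Angpt1 averaged 3.04 ± 0.15 (SD over 2 arrays), at GD9.0 3.49 ± 0.06 and at GD9.5 3.84 ± 0.16 (4 arrays each), and it changed by 0.80 ± 0.10 (SE) over the day, with 1 of 2 probe sets called. Angpt2, a context-dependent antagonist, fell in the first interval (-0.56 ± 0.15), where the SD of its 2 GD8.5 arrays was 0.48, and had 1.74 at GD9.5. Angpt4 was at least 1.23-fold lower at GD9.5 than at GD8.5, since its GD9.5 mean of 1.33 lay under the background. Ptprb, a phosphatase that acts on Tek and VE-cadherin, was at 0.043 ± 0.15 and did not pass.

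**Figure D3:**
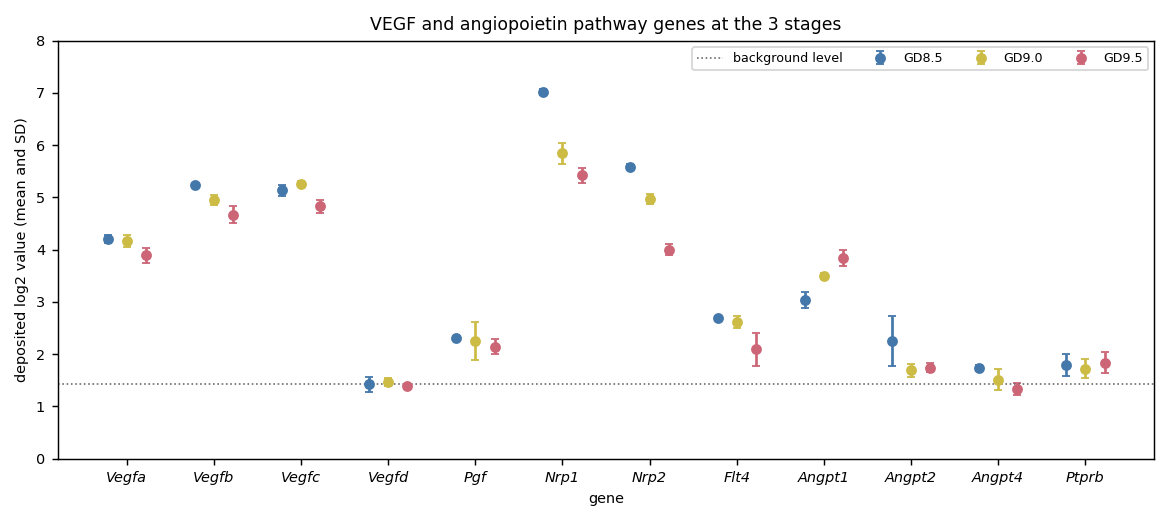
Mean deposited log2 value with SD (y axis) of 12 genes of the VEGF and angiopoietin systems (x axis) by stage, from 2 arrays for GD8.5 and 4 for each later stage. Nrp1 and Nrp2 step down and Angpt1 steps up at each stage, while Vegfd and Angpt4 lie near the dotted background level.

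Other endothelial surface and junction genes went both ways. Of 28 measured, 6 rose and 6 fell over the full day, with a median log2 change of 0.017, close to that of all genes. Cd34, a sialomucin of endothelial and blood precursors, rose by 1.75 ± 0.12 (SE), and Jam2, a junctional adhesion molecule, by 1.66 ± 0.13 with 4 of 5 probe sets called. Ramp2, the partner of the adrenomedullin receptor Calcrl, fell by 1.04 on the log2 scale, and Ecscr, an endothelial surface protein, by 0.75. In the first interval 5 rose and 6 fell, Calcrl changing most among those that fell (-0.88 ± 0.14). In the second 4 rose and 4 fell, among them Plxnd1, a semaphorin receptor (0.45 ± 0.13), and Icam2, an endothelial adhesion molecule (-0.55 ± 0.09).

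Of 15 endothelial transcription factor genes 6 fell and 0 rose over the full day, with a median change of -0.18. Mef2c, a MADS-box factor also of heart and neural crest, changed by -2.22 ± 0.10 (SE, 5 of 5 probe sets) and Foxc2, a forkhead factor also of paraxial mesoderm, by -1.87 ± 0.11. In the first interval 7 fell and 0 rose, led by Foxc2 (-1.81 ± 0.11) and Hhex (-0.83 ± 0.11), a homeobox factor also of anterior endoderm. In the second 3 fell and 1 rose, with Mef2c at -1.67 ± 0.08, Ets1, an ETS factor, at -0.55 ± 0.08, and Elk3, another ETS factor, at 0.27 ± 0.08 with 1 of 4 probe sets called.

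Arterial genes split evenly over the full day, with 3 of 10 higher and 3 lower. Notch4, the Notch receptor of endothelium, rose by 1.49 ± 0.14 (SE, 1 of 3 probe sets), and its mean was 3.49 ± 0.09 (SD, n = 4) at GD9.5, against 2.41 ± 0.23 at GD9.0 (n = 4). Hey1, a Notch effector also of neural tissue, rose by 0.74 ± 0.08, while its relative Hey2 (-0.81 ± 0.09) and the netrin receptor gene Unc5b (-0.68 ± 0.09) fell. In the first interval 1 arterial gene rose and 5 fell, and in the second 2 rose and 0 fell. The chemokine receptor gene Cxcr4 was 1 of the 2 that rose in the second interval (0.64 ± 0.06). Of the 3 venous genes Aplnr, the apelin receptor, fell over the day (-0.60 ± 0.11) and Nr2f2, a nuclear receptor also of mesenchyme, rose (0.69 ± 0.07, 4 of 6 probe sets), and Ephb4, the venous ephrin receptor, rose in the second interval (0.33 ± 0.08).

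Taking the 68 measured genes of all these other endothelial lists, 11 rose and 24 fell over the full day. Of all genes 15.5% rose and 13.1% fell, so the share that rose was near that of all genes. The median log2 change of the 68 was -0.16. Genes of other tissues changed beside these groups. The 10 measured neural tube markers, Sox2 and Pax6 among them, were all above the background and all higher at GD9.5 than at GD8.5. Their mean log2 level was 5.60 on both GD8.5 arrays, 6.08 to 6.10 at GD9.0 and 6.71 to 6.75 at GD9.5. All 11 measured genes of endoderm and yolk sac were lower, with mean levels of 6.46 to 6.53 at GD8.5, 3.88 to 3.92 at GD9.0 and 2.06 to 2.15 at GD9.5, and so were the 9 cardiac muscle genes, at 5.36 to 5.46, 2.98 to 3.10 and 1.39 to 1.56. By GD9.5 the transthyretin gene Ttr had a mean of 1.52 and the cardiac actin gene Actc1 one of 2.17. Of 3 endocardial genes 2 fell over the day, led by Cgnl1 (-1.17 ± 0.14 SE, 1 of 5 probe sets), and of 6 mural cell genes 2 fell and 1 rose, with Acta2, smooth muscle actin that is also made in early heart, at -3.78 ± 0.16 (1 of 3 probe sets). The mean level of the 10 endothelial genes was 3.24 to 3.28 at GD8.5, 2.76 to 2.83 at GD9.0 and 2.53 to 2.67 at GD9.5. Etv2 (-2.28) and Sox17 (-1.54) moved this mean most over the full day, while 4 of the 10 were not called. The part of these tissues in the endothelial changes was not tested, and they change with the stage. Among the control probe sets, actin at the 3′ end exceeded that at the 5′ end by 0.70 to 0.72, 0.53 to 0.59 and 0.90 to 0.97 by stage, while the same difference for Gapdh was 0.034 to 0.044, -0.020 to 0.0083 and 0.024 to 0.089. The 18S ribosomal RNA controls read 9.82 to 9.83, 8.65 to 9.05 and 10.2 to 10.4. The part of these measures was not tested either.

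**Figure D4:**
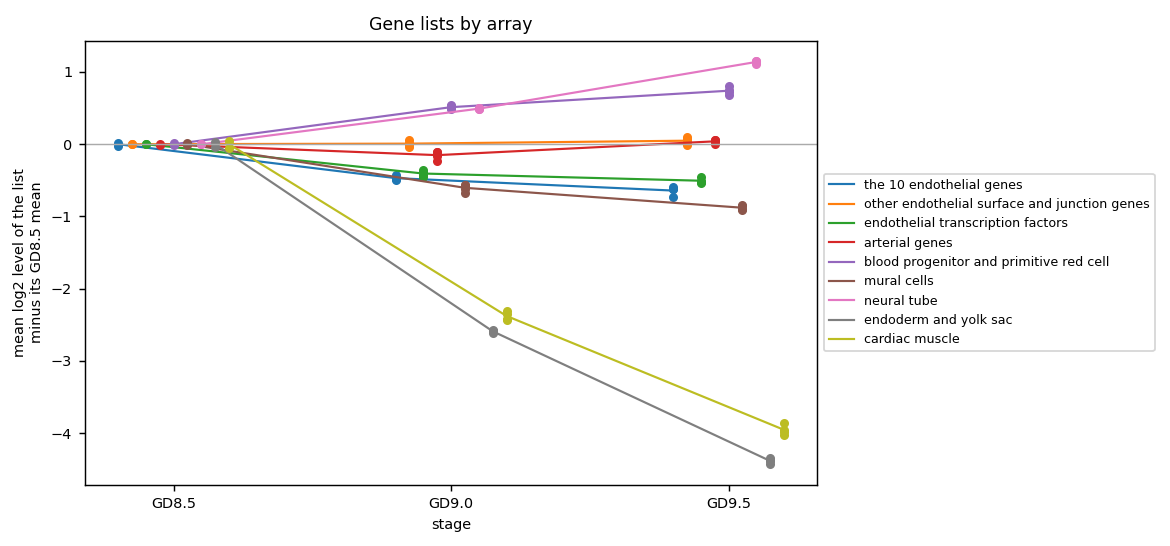
Mean log2 level of 9 gene lists on each array minus the list's GD8.5 mean (y axis) by stage (x axis), circles for arrays and lines through stage means. The 10 endothelial genes stand about level with the endothelial transcription factors and far above the endoderm and cardiac lists, while the neural tube and blood lists go up.

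The genes whose pattern over the 10 arrays was most like that of a given endothelial gene were found by Pearson's correlation among 13018 genes above the background, as a description across arrays that share their stages. For Etv2 they were Dsg2, a desmosomal cadherin, Dlc1 and Rhpn2 (r = 0.993, 0.992 and 0.990). For Tek they were Tmem54, Rpl7a, a ribosomal protein gene, and Man2a1, a Golgi mannosidase (r = 0.988, 0.985 and 0.980). For Kdr they were Aimp1, Rrp1b and Samhd1 (r = 0.973, 0.971 and 0.969), and for Cdh5 Atp6v0d1, Rap1gap and Sapcd1 (r = 0.917, 0.908 and 0.880). None of the other endothelial genes searched, which leave out Tie1, was among these 12. Tek was closest to Kdr among them (r = 0.928), and Cdh5 had r = 0.089 with Kdr.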

How the data were processed

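The labels' protocols give total RNA labelled with biotin. The deposited log2 values of 10 arrays were already on 1 distribution, with sorted values at most 0.27 apart, and the deposited intensities of GD8.5 replicates 1 and 2 were linear and left out of the tests. Per the submitters' processing notes the tools were RMA, GCRMA and Affymetrix Expression Console 1.2.1, whose roles are not given in the sources used here. Control probe sets (64) were left out. Names came from the platform annotation, updated through a GRCm38.p6 gene table, and 48 of 18193 genes were not matched there. The fit was a stage-means model in limma 3.58.1 (R 4.3.3; 7 residual degrees of freedom, prior 3.86), and calls used Benjamini-Hochberg adjustment over all genes. Errors beside log2 changes are SE. The fit was also run on simulated data, with independent values and changes placed only at GD9.5. Its outcome is not given here, so it is no check of the results above. From each list the genes with the largest called rise and fall per comparison are named, and every VEGF and angiopoietin gene. The members and lists were chosen with earlier results of these data known. The number of arrays limits precision. Equal replicate numbers were not treated as pairs.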

Additional observations from a re-analysis of the deposited data

Results flagged for a closer look

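The change of Sox17 differed between the intervals by 1.93 (second minus first, limma with Benjamini-Hochberg adjustment), and that of Esam by -0.48. Of all genes, 11.6% were called in this comparison. The Esam call was lost in 6 of the 19 alternatives listed below. Among 30 groups of 4 arrays (15 probe sets at GD9.0 and GD9.5), 2 held an array far from the other 3 by Dixon's criterion, where chance gives about 1 in 20. Both were of Flt1 at GD9.0, with replicate 2 at 2.68 on probe set 1451756_at and replicate 3 at 1.73 on 1454037_a_at, so different arrays stood apart on different probe sets. Without GD9.0 replicate 2 the first-interval change of Flt1 was -0.47 and passed (limma adjusted p = 0.0415).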

How the results depend on the processing

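The 19 alternatives to the gene-level fit were median centring, repeated quantile normalization, genes above the background, the mean of probe sets, plain _at probe sets, a trended robust fit, array weights, a replicate block, 12 arrays and 10 fits without 1 array each. At GD9.0 against GD8.5, 5 of the 10 genes were lower instead of 3 with array weights, among genes above the background, with repeated quantile normalization and with the trended robust fit, where Cdh5 and Flt1 also passed. At GD9.5 against GD8.5, 1 gene, Pecam1, was higher instead of 0 with 12 arrays, among genes above the background and with repeated quantile normalization. The replicate block gave 1 higher gene at GD9.5 against GD9.0, Sox17 (0.19, limma adjusted p = 0.0381), 4 lower genes at GD9.0 against GD8.5 and 1 call between the intervals, and changed no other count. By their deviations from the stage mean, same-numbered arrays correlated between -0.059 and 0.12 and differently numbered ones between -0.17 and 0.15. The 2 GD8.5 arrays mirror each other there by construction, so the check cannot decide whether the numbers mark pairs. Between the intervals 1 gene was called instead of 2 with 12 arrays and with plain _at probe sets, which leave out Sox17 and Pecam1 by construction. With the mean of probe sets 3 were called, as Flt1 also passed. Without 1 array, the counts lower at GD9.0 against GD8.5 ranged from 3 to 4, at GD9.5 against GD9.0 from 4 to 5 and at GD9.5 against GD8.5 from 6 to 7, those higher from 0 to 0, 0 to 0 and 0 to 1, and those between the intervals from 1 to 3. The GD9.0 minus GD8.5 change relative to Cdh5 ranged without 1 array from -1.12 to -0.66 for Etv2, 0.048 to 0.37 for Kdr, -0.32 to 0.091 for Tek, -1.56 to -1.08 for Sox17, -0.26 to 0.61 for Tal1 and -0.16 to 0.15 for Flt1, and with the mean of probe sets it was -0.94 for Sox17. At GD9.5 against GD9.0 it ranged from -1.21 to -0.98 for Etv2, -0.60 to -0.37 for Kdr, -0.65 to -0.47 for Tek, -0.067 to 0.090 for Sox17, -0.079 to 0.10 for Tal1 and -0.46 to -0.24 for Flt1. The cause of these shifts was not tested. Over all genes median centring gave 1546 higher and 1025 lower genes at GD9.0 against GD8.5 instead of 1233 and 1227. At GD9.5 against GD9.0 it gave 1906 higher and 3177 lower genes instead of 2561 and 1868, and the 12 arrays gave 1259 and 1036. Etv2, Sox17, Kdr and Esam kept each of their calls in the 3 stage comparisons in every alternative that held the gene.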

Other observations

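On the linear GD8.5 arrays, replicates 1 and 2, the endothelial genes were read as intensities on another scale than the other arrays, so the percentile of a probe set within its own array is given. Etv2 stood at the 68.9th and 72.2nd percentile there, 74.1 and 73.9 on the other GD8.5 arrays, 62.9 to 65.2 at GD9.0 and 36.7 to 53.6 at GD9.5. Sox17 stood at 77.6 and 78.6 on the linear arrays, 73.0 and 72.4 on the other GD8.5 arrays, 53.9 to 58.5 at GD9.0 and 56.2 to 62.2 at GD9.5. Tek stood at 74.6 and 76.8, then 72.5 on both, 67.3 to 69.6 and 63.1 to 65.9. For these 3 genes all 4 GD8.5 arrays were above all later arrays. This did not hold for the other 3 genes called lower over the full day. The share of all genes with such a separation was not counted, so the separation has no baseline here. Whether percentiles on the linear arrays can be compared with those on the log2 arrays was not tested. Kdr stood at 78.0 and 80.5 on the linear arrays, 79.5 and 80.0 on the other GD8.5 arrays, 77.4 to 79.0 at GD9.0 and 75.2 to 76.5 at GD9.5, so that replicate 1 lay among the GD9.0 arrays. Esam stood at 75.8 and 71.5 on the linear arrays, 73.0 and 72.5 on the other GD8.5 arrays, 72.3 to 73.3 at GD9.0 and 68.3 to 70.01 at GD9.5, with replicate 2 under all GD9.0 arrays. Flt1 stood at 64.0 and 53.9 on the linear arrays and 65.3 and 66.0 on the other GD8.5 arrays, 60.8 to 63.2 at GD9.0 and 55.7 to 62.1 at GD9.5, so that replicate 2 lay under all later arrays.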
